A study of Mus musculus with 4 samples.

Results

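The interleukin-1 and inflammasome genes described here are 10 of the 32285 genes in the files: the ligands Il1a and Il1b, the receptor antagonist Il1rn, the decoy receptor Il1r2, the sensor Nlrp3, the caspases Casp1 and Casp4, the pore protein Gsdmd, and the cytokines Tnf and Il6. They were taken by gene symbol, and their raw transcript counts were summed per library and cell class. All 10 were present in all 4 libraries. The cells were CD45-positive cells sorted from MC38 tumours, a mouse colon carcinoma line grown under the skin. Hosts were Trim25 cKO mice and WT mice, both 8 weeks old, each injected with 100000 tumour cells. The libraries were cKO-1 and cKO-2 against WT-1 and WT-2, 2 per genotype, made with droplet-based 3′ single-cell chemistry. Trim25 encodes a ubiquitin ligase, and the title of the series places its ablation in T cells. The labels do not state the driver of the deletion. They also do not say whether each library came from its own animal or animals, so every p-value below reflects only how far these 4 libraries spread, part of which may be technical.

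Interleukin-1β is made as an inactive precursor after inflammatory signals such as Toll-like receptor ligands switch on its gene through NF-kappaB. A further signal assembles the NLRP3 inflammasome, in which caspase-1 cleaves the precursor and gasdermin D, whose fragments open membrane pores. Mouse Casp4 encodes caspase-11, which senses intracellular lipopolysaccharide and also cleaves gasdermin D. Interleukin-1α signals through the same receptor and does not need caspase-1 for its activity. The antagonist encoded by Il1rn occupies that receptor without signalling, and the decoy encoded by Il1r2 binds ligand without signalling. Tumour necrosis factor and interleukin-6 are induced by many of the same signals. In tumours these cytokines come largely from myeloid cells. Transcripts do not report cleavage or secretion, and protein was not measured.

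The sequences upstream of Il1b, Il1a and Il6 are shown because these 3 cytokine genes rose in at least 1 myeloid class or subset of cKO tumours. Each is the 250 bases before the annotated start in RefSeq (GRCm38.p6), written 5′ to 3′ on the strand of the gene. Capitals mark matches, on either strand, to a 10-letter NF-kappaB consensus, to TGANTCA (AP-1) or to TTGCNNAA (C/EBP). No match overlapped another.
Il1b, chr2:129371140-129371389, minus strand: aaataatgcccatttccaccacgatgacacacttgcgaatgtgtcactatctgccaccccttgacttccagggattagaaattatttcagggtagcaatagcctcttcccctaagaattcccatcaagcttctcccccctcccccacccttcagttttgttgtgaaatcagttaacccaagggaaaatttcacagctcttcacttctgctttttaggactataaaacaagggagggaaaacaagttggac
Il1a, chr2:129309973-129310222, minus strand: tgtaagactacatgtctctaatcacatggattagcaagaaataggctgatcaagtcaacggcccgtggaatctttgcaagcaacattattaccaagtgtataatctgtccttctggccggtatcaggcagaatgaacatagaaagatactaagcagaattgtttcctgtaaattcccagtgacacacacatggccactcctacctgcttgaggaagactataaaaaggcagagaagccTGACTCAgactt
Il6, chr5:30012864-30013113, plus strand: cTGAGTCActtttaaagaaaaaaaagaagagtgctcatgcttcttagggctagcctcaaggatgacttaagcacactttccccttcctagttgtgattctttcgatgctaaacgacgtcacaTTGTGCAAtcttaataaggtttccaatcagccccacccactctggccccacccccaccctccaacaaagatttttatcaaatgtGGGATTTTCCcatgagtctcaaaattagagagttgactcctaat

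The Il6 window held 1 match to each motif, with the NF-kappaB match starting at -44 and the C/EBP match at -128 from the start site. The Il1a window held an AP-1 match starting at -12, and the Il1b window held none of the 3. Among 32851 windows of this length, 0.98% held the NF-kappaB letters, 6.75% the AP-1 letters and 9.56% the C/EBP letters. RefSeq windows were found for 9 of the 10 genes, Gsdmd being the gene without one, and gave 13 windows in all. Of the genes not printed, Casp4 had an NF-kappaB match, at -92 and -103 from its 2 start sites, and Il1rn an AP-1 match at -141. The letters GAGGAA (ETS or PU.1) were also searched, without capitals; 23.3% of all windows held them, and those of Il1a, Nlrp3, Casp1 and Tnf did. A match is a description of the letters and not evidence of a bound site. In GENCODE vM21 on the same build, Il1b spans chr2:129364570-129371139 and Il1a chr2:129299610-129309972, neighbours on the minus strand, and Il6 spans chr5:30013114-30019981 on the plus strand. Annotated antisense genes overlap Il1b, Il1a and Il1r2. The one over Il1b, Il1bos, had 42 and 68 UMIs (unique molecular identifiers, each standing for 1 captured transcript) in cKO monocytes, against 58 and 66 UMIs in WT monocytes. No source used here states whether reads were counted by strand.

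Trim25 transcripts were at 48.6 and 45.7 CPM (UMIs per 1000000 UMIs of the sum) in cKO T cells, against 65.3 and 62.1 CPM in WT T cells. That difference did not pass the test over all genes (log2 fold change -0.42 ± 0.11, edgeR adjusted p = 0.270). Reads from the 3′ end may miss the deleted exons, in which case this level does not check the labels. Depth was 101176581 and 115111783 UMIs in the cKO libraries, against 96751399 and 127449324 UMIs in the WT libraries, over 8205 to 12092 kept cells each. The labels call the samples a colorectal tumour line from colon, whereas the cells clustered into immune classes and Ptprc, which encodes CD45, was at 2762 and 2624 CPM in monocytes of cKO tumours, against 2841 and 2874 CPM in WT monocytes. A class with fibroblast markers, outside a CD45 gate, held 386 and 143 cells in the cKO libraries against 74 and 169 cells in the WT libraries. Libraries shared 310 of 40579 distinct cell barcodes. Class names stand for clusters that resemble a cell type by its markers, and the 10 genes were left out of the clustering.

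Neutrophils held the highest level of Il1b. Macrophages, monocytes and type 2 conventional dendritic cells (cDC2) came next, with means over 4 libraries of 2704, 2631 and 2129 CPM that overlapped one another. Il1b was at 13349 and 12878 CPM in cKO neutrophils, against 12230.1 and 10304 CPM in WT neutrophils. It averaged 3305 ± 206 CPM in cKO monocytes and 1957 ± 99.6 CPM in WT monocytes (SD, n = 2 each). Neutrophils also led in Il1a, Il1rn, Il1r2 and Tnf, and in each of these 5 genes the 4 neutrophil sums lay above all 4 sums of the next class. Nlrp3 was highest in mast cells or basophils, at a mean of 585 CPM over 4 libraries, which overlapped the 542 CPM of neutrophils. Casp1 led in monocytes, at a mean of 146 CPM, clear of the 104 CPM of cDC2. Monocytes also had the highest means of Casp4, 283 CPM, and Gsdmd, 69.2 CPM, each overlapping the class below. Il6 stood apart from the other 9 genes, with a mean of 4277 CPM in mast cells or basophils and 119 CPM in mature dendritic cells, the next class. Il6 was also among the 10 leading genes of the mast cell or basophil cluster, and Il1r2 among those of the cDC2 cluster, although neither was used to form the clusters.

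**Figure D1:**
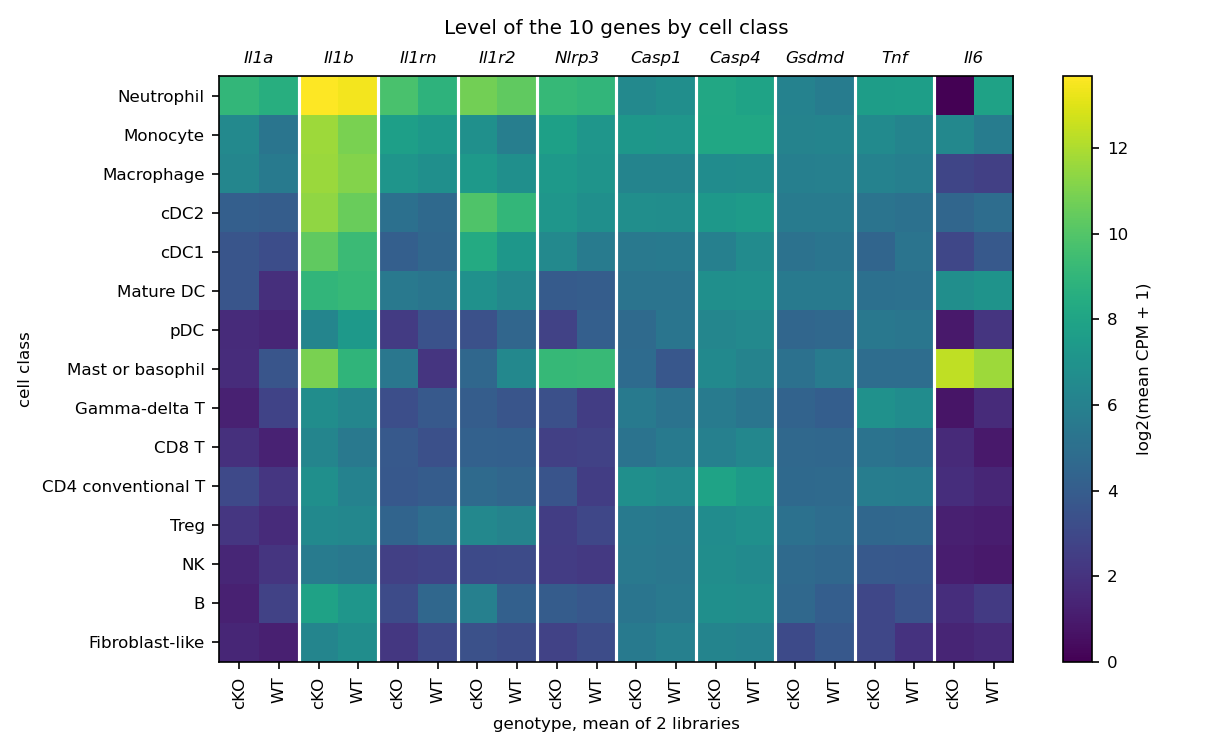
Levels of the 10 genes in 15 cell classes (rows), as log2 of the mean CPM of 2 libraries plus 1, with cKO left of WT for each gene. Il1b is highest in neutrophils (13114 CPM in cKO and 11267 CPM in WT) and Il6 in mast cells or basophils.

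Neutrophils held at most 3.16% of the Il1b transcripts of a library, and monocytes and macrophages the most. Neutrophils were 96 and 34 cells in cKO libraries, against 50 and 88 cells in WT libraries. They held 2.64% and 0.703% of all Il1b UMIs in cKO libraries, against 2.17% and 3.16% in WT libraries. Monocytes held 35.7% and 41.1% of Il1b UMIs in cKO libraries, against 49.9% and 44.3% in WT libraries. Macrophages held 32.1% and 26.6% in cKO libraries, against 25.6% and 21.3% in WT libraries. These shares follow the class sizes as well as the level per cell: monocytes were 18.8% and 25.5% of cKO cells against 31.2% and 27.9% of WT cells, and macrophages 24.2% and 19.7% against 17.3% and 14.6%. For the decoy receptor gene Il1r2, cDC2 were the main source, with 37.5% and 51.0% of its UMIs in cKO libraries against 40.8% and 42.5% in WT libraries. For Il6, monocytes held 61.5% and 52.2% in cKO libraries against 65.8% and 51.5% in WT libraries. Mast cells or basophils held 14.2% and 31.6% of Il6 UMIs in cKO libraries, from 24 and 35 cells, against 8.50% and 17.9% in WT libraries, from 30 and 41 cells. Droplets that mixed cell types held 15.4% and 14.7% of Il1b UMIs in cKO libraries against 10.5% and 15.4% in WT libraries and were not assigned to a class.

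**Figure D2:**
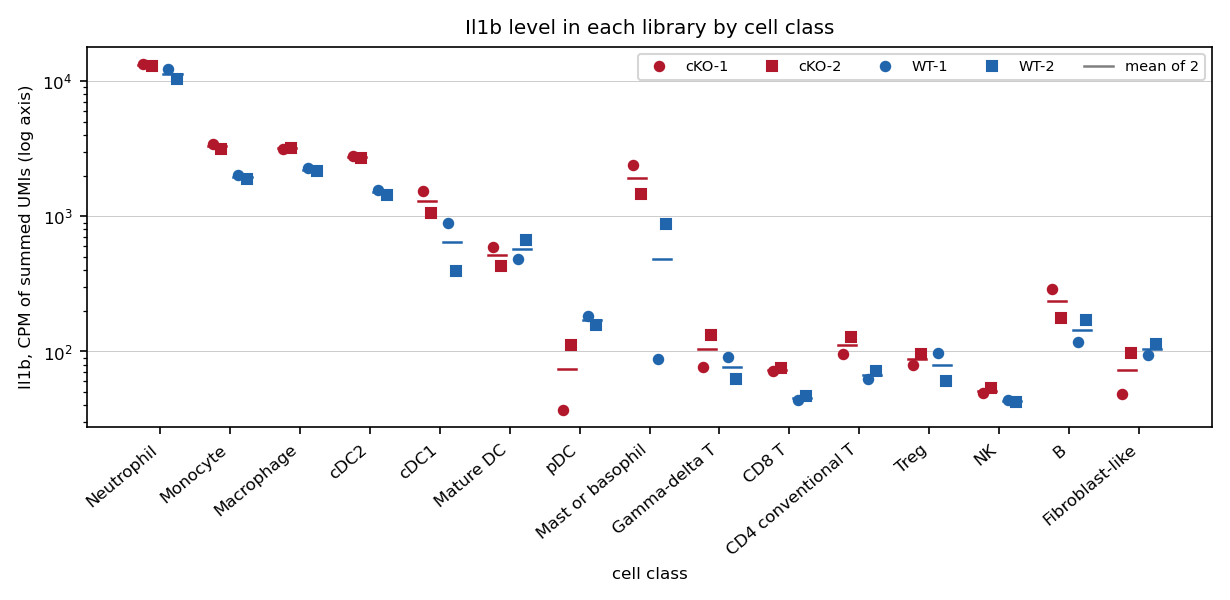
Il1b level in each library by cell class, in CPM of summed UMIs on a log axis. Points are the 2 cKO libraries (left, red) and the 2 WT libraries (right, blue) of each class, and lines are means of 2. In cDC2 the cKO points, 2786 and 2709 CPM, lie above the WT points, 1576 and 1445 CPM, and in plasmacytoid dendritic cells they lie below them.

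In monocytes the 2 cKO libraries exceeded the 2 WT libraries for both interleukin-1 ligands and for the decoy receptor, but no member passed edgeR's test over all genes with all 4 libraries and the filter on low counts. Il1b was at 3451 and 3159 CPM in monocytes of cKO tumours, against 2028 and 1887 CPM in WT monocytes. For Il1a the cKO monocytes had 86.4 and 84.8 CPM and the WT monocytes 50.8 and 26.1 CPM. Il1r2 was at 139 and 89.7 CPM in monocytes of cKO tumours, against 59.8 and 53.9 CPM in WT monocytes. The genotypes did not overlap for any of these 3 genes, nor for Il1rn, Nlrp3 and Il6. That made 6 of 10 members with both cKO libraries above both WT libraries, beside 12.1% of the 13977 genes tested in monocytes. The median log2 fold change over the 10 members was 0.52, against -0.00038 over all genes tested. By edgeR's quasi-likelihood test with Benjamini-Hochberg adjustment, the log2 fold change was 0.79 ± 0.12 for Il1b (adjusted p = 0.242), 1.19 ± 0.25 for Il1a (adjusted p = 0.417) and 1.04 ± 0.18 for Il1r2 (adjusted p = 0.352).

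Of the 10 members in monocytes 0 were called by edgeR, where 0.00715% of all genes were. In edgeR 6 members had an unadjusted p under 0.05, beside 758 of 13977 genes. DESeq2 called 2 members, Il1r2 and Il1b, among 46 genes. Without the low-count filter edgeR called Il1a, Il1b, Il1r2, Nlrp3 and Il6, and with at most 10% mitochondrial UMIs Il1b (adjusted p = 0.0427). The count also depended on which libraries were fitted. Il1a and Il1r2 each passed in edgeR without any 1 of the 4 libraries: without cKO-1 (edgeR adjusted p = 0.0136 and 0.0382), without cKO-2 (0.00304 and 4.24e-06), without WT-1 (4.55e-13 and 8.53e-07) and without WT-2 (0.00118 for both). Il1b passed without cKO-2 (edgeR adjusted p = 0.00832) and without WT-1 (0.00251). Without WT-1, the library with the higher WT values of most of these genes, Il1rn (log2 fold change 0.60), Nlrp3 (0.99), Tnf (0.84) and Il6 (0.92) passed too, and Il6 also passed without cKO-1 (1.02). In such fits the lone library of a genotype is assumed to vary like the others. The share of all genes passing is not given for fits without 1 library or without the low-count filter, here or below. Passing in them is therefore not read as a result about the members. The monocyte class was made up of 4 clusters in unequal parts. Cluster 2, led by Thbs1, held 38.4% and 34.7% of cKO monocytes, against 29.0% and 21.2% of WT monocytes, and cluster 6, with the non-classical markers Ace and Treml4, held 16.6% and 13.6% against 20.3% and 28.1%. The part of this makeup in the class differences was not tested.

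A larger share of monocytes carried Il1b in both cKO libraries than in either WT library, and a smaller share of its transcripts sat in the top cells. Cells with 2000 UMIs or more were thinned to 2000 UMIs, and cells with fewer were left out of thinned shares, here and below. This kept 1467 of 1541 and 2274 of 2389 cKO monocytes, and 3055 of 3190 and 3180 of 3370 WT monocytes. Thinning was used because cKO monocytes held more UMIs per cell, with medians of 13305 and 12238 UMIs against 10515 and 10074 UMIs in WT monocytes. The source of that difference was not tested. At 2000 UMIs per cell Il1b was seen in 72.4% and 68.2% of these cKO monocytes, against 57.9% and 58.3% of WT monocytes. Without thinning, over all monocytes, the shares were 86.5% and 84.8% in cKO, against 75.1% and 75.7% in WT. Thinned CD8 T cells, which should lack the gene, showed it in 13.6% and 12.6% of cKO cells, against 9.51% and 8.60% of WT cells, with median depths of 10548.5 and 12154 UMIs against 8672 and 8591.5 UMIs. The 10% of thinned monocytes with the most Il1b held 39.3% and 43.1% of the Il1b UMIs in cKO, against 49.9% and 48.2% in WT. These shares are descriptions, since an exact permutation test of 2 libraries against 2 cannot reach a p of 0.05. Within the thinned monocytes, Il1a was seen in 9.51% and 9.99% of Il1b-positive cells against 3.21% and 1.11% of Il1b-negative cells in cKO, and in 6.84% and 3.40% against 2.41% and 1.13% in WT.

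Macrophages showed smaller differences in the same genes, and edgeR called none. Il1b was at 3160.2 and 3222 CPM in cKO macrophages, against 2262 and 2173 CPM in WT macrophages. Il1a was at 67.3 and 84.7 CPM in cKO macrophages, against 53.7 and 45.2 CPM in WT macrophages, and Il1r2 at 174 and 153 CPM against 129 and 92.2 CPM. The genotypes did not overlap in these 3 genes or in Il1rn, which made 4 of 10 members with cKO above WT, beside 15.6% of the 13099 genes tested. Fold changes were 0.54 ± 0.11 for Il1b and 0.63 ± 0.13 for Il1a (log2, edgeR adjusted p = 0.382 for both), and 0.58 ± 0.14 for Il1r2 (adjusted p = 0.581). Over the 10 members the median was 0.31, against 0.0043 over all genes. By edgeR, 0 members and 0% of all genes were called, and 4 members had an unadjusted p under 0.05, beside 652 of 13099 genes. DESeq2 called Il1a and Il1b, among 21 genes. Without WT-1, Il1a (0.74, edgeR adjusted p = 0.0298) and Il1r2 (0.82, adjusted p = 0.00402) passed. The thinned share of macrophages with Il1b, 63.1% and 69.2% in cKO, overlapped the 65.3% and 63.5% in WT. It rests on 1614 of 1989 and 1531 of 1846 cKO macrophages, and on 1379 of 1767 and 1379 of 1763 WT ones. Unthinned, over all macrophages, the share was 72.7% and 76.4% in cKO, against 70.1% and 69.5% in WT.

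The difference between genotypes was larger in monocytes than in macrophages for Il1b by 0.25 ± 0.07 on the log2 scale, for Il1a by 0.61 ± 0.17 and for Il1r2 by 0.42 ± 0.12. As interactions over all genes these did not pass (edgeR adjusted p = 0.440, 0.421 and 0.436). No member did, against 0.0646% of the 13932 genes tested. An unadjusted p under 0.05 was seen in 5 of the 10, and the matching count over all genes is not given here. DESeq2 was not run on this interaction.

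In cDC2 Il1b rose. It was at 2786 and 2709 CPM in cKO cDC2, against 1576 and 1445 CPM in WT cDC2, and the genotypes lay far apart relative to their spread. The log2 fold change was 0.87 ± 0.11 by edgeR's quasi-likelihood test (adjusted p = 0.0395), 1 of 5 genes called among 11601, or 0.0431%. The call was kept in 10 of 11 other settings, in each of the fits without 1 library among them. It was lost with a limit of 10% mitochondrial UMIs, where the log2 fold change was 0.89 and the adjusted p 0.0547. Il1r2, of whose transcripts these cells held the largest share, was at 984 and 911 CPM in cKO cDC2, against 613 and 464 CPM in WT cDC2. Its log2 fold change of 0.82 ± 0.13 did not pass with all 4 libraries (edgeR adjusted p = 0.0654), and it passed without cKO-1 (adjusted p = 0.000344), cKO-2 (1.11e-05), WT-1 (7.70e-11) or WT-2 (0.00106). DESeq2 called both genes, among 18 in all. Il1rn, Nlrp3 and Casp1 also had both cKO libraries above both WT libraries, so 5 of 10 members did, beside 17.2% of all genes in that direction. Nlrp3 passed without WT-1 (log2 fold change 0.65), and Il6 without cKO-2, with a log2 fold change of -0.76. The summed level of 11 neutrophil markers in cDC2 was 44.7 and 60.5 CPM in cKO, against 44.7 and 56.3 CPM in WT. The sum of 11 monocyte markers, 6856 and 7868 CPM in cKO, overlapped the 8107 and 7674 CPM in WT, and so did that of 12 macrophage markers, 766 and 793 CPM in cKO and 716 and 775 CPM in WT. Within the macrophage list, C1qb was at 111 and 110.1 CPM in cKO cDC2, against 75.4 and 92.0 CPM in WT cDC2, and C1qa and C1qc also had both cKO libraries above both WT libraries; their part in the result was not tested. Thinned cDC2 carried Il1b in 68.2% and 63.3% of cKO cells, against 52.0% and 52.9% of WT cells. The unthinned shares, over all cDC2, were 82.8% and 80.5% in cKO, against 69.4% and 73.0% in WT. Il1r2 was seen in 58.8% and 54.3% of Il1b-positive cDC2 against 35.8% and 25.5% of Il1b-negative ones in cKO, and in 44.5% and 42.7% against 19.8% and 21.1% in WT.

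**Figure D3:**
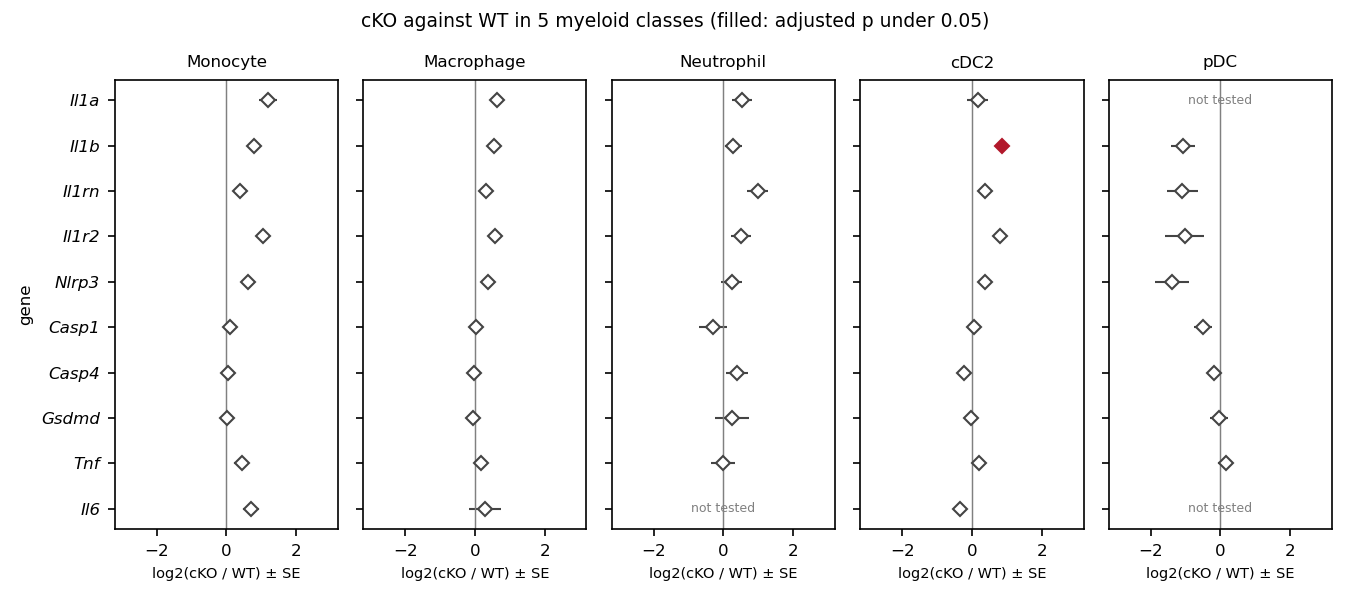
Log2 fold changes (cKO over WT) of the 10 genes with their standard errors in 5 myeloid classes; filled red symbols have an edgeR adjusted p under 0.05. Il1b in cDC2, at 0.87, is the 1 filled symbol, while Casp1, Casp4 and Gsdmd lie near 0 in monocytes and macrophages.

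In neutrophils the antagonist gene, rather than the ligands, showed the smallest p of the members, without passing. Il1rn was at 769 and 932 CPM in cKO neutrophils, against 569.5 and 337 CPM in WT neutrophils (log2 fold change 0.98 ± 0.30, edgeR adjusted p = 0.304). Il1a was at 459 and 602 CPM in cKO neutrophils, against 385 and 363 CPM in WT neutrophils (0.55 ± 0.29, adjusted p = 0.689). Il1b differed by 0.28 ± 0.24 (adjusted p = 0.862). In these 3 of the 9 members tested the genotypes did not overlap, with cKO above, beside 17.1% of 4554 genes. Il1r2 overlapped, with 1494 and 1962 CPM in cKO neutrophils and 1549 and 1004 CPM in WT neutrophils. By edgeR 0 members and 0% of genes were called, and 1 member had an unadjusted p under 0.05, beside 379 of 4554 genes. DESeq2 called 0 members and 3 genes. Neutrophil sums held 394263 and 121290 UMIs in cKO, against 244069 and 466127 UMIs in WT, a small part of the monocyte sums of 20659500 to 35690100 UMIs. The summed monocyte markers in this class ran from 3589 to 8830 CPM in cKO and from 6113 to 8013 CPM in WT, and their part in these levels was not tested.

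The ratio of antagonist to agonist transcripts was lower in cKO than in WT monocytes, cDC2 and cDC1, without overlap. The same held in all kept cells and in some lymphocyte classes, where Il1b is read below as background. Il1rn was at 198 and 221 CPM in monocytes of cKO tumours, against 185 and 141 CPM in WT monocytes, and at 144 and 131 CPM in cKO macrophages, against 127 and 96.0 CPM in WT macrophages. Its log2 fold change was 0.39 ± 0.14 in monocytes (edgeR adjusted p = 0.837) and 0.32 ± 0.12 in macrophages (adjusted p = 0.945). Per Il1b UMI, monocytes held 0.0573 and 0.0699 Il1rn UMIs in cKO, against 0.0914 and 0.0750 in WT. In cDC2 the ratio was 0.0121 and 0.0112 in cKO, against 0.0172 and 0.0158 in WT. In cDC1, the dendritic cells that cross-present antigen, it was 0.0130 and 0.0127 in cKO, against 0.0347 in both WT libraries. The genotypes did not overlap in these 3 classes, with cKO lower. Nor did they in B cells, at 0.0305 and 0.0356 in cKO against 0.282 and 0.0772 in WT. The B cell ratios rest on 12 and 9 Il1rn UMIs in cKO, against 42 and 23 in WT. A single B cell, described below, held a large part of the Il1b UMIs of cKO-1. CD4 conventional T cells had 0.0841 and 0.137 in cKO against 0.256 and 0.186 in WT. Regulatory T cells had 0.286 and 0.185 in cKO against 0.385 and 0.324 in WT. Over all kept cells the ratio was 0.0467 and 0.0495 in cKO, against 0.0730 and 0.0568 in WT. In neutrophils the order was opposite, at 0.0576 and 0.0723 in cKO against 0.0466 and 0.0327 in WT. So it was in mast cells or basophils, at 0.0169 and 0.0287 in cKO against 0 and 0.00735 in WT. That class had only 24 and 35 cells in cKO, against 30 and 41 cells in WT, and few Il1rn UMIs. A single cell, described below, held most of its Il1b UMIs in cKO-1. Macrophages overlapped, at 0.0455 and 0.0408 in cKO and 0.0561 and 0.0442 in WT. These are ratios of 3′ counts, given as descriptions without a test, since an exact permutation of 2 against 2 libraries cannot reach a p of 0.05.

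Of the genes that process interleukin-1β, the sensor had a larger fold change in monocytes than the caspases and the pore protein, a difference that was not tested, and none was called. Nlrp3 was at 207 and 231 CPM in monocytes of cKO tumours, against 181 and 113 CPM in WT monocytes (log2 fold change 0.61 ± 0.20, edgeR adjusted p = 0.769). Casp1 was at 144 and 154 CPM in monocytes of cKO tumours, against 138 and 147 CPM in WT monocytes. Casp4 was at 269 and 298 CPM in monocytes of cKO tumours, against 302 and 265 CPM in WT monocytes, and Gsdmd at 68.0 and 69.0 CPM against 67.5 and 72.2 CPM. The cKO and WT values overlapped for Casp1, Casp4 and Gsdmd, with log2 fold changes of 0.09 ± 0.10, 0.04 ± 0.12 and 0.01 ± 0.10. In macrophages the same 3 genes had 0.03 ± 0.09, -0.02 ± 0.10 and -0.05 ± 0.09, and Gsdmd was the 1 member with both cKO libraries below both WT libraries, beside 18.2% of genes in that direction. Standard errors of that size do not show that these genes were equal. Over the classes in which each was tested, Casp1 had an unadjusted p under 0.05 in 0 of 14, Gsdmd in 0 of 13 and Casp4 in 2 of 15. Over all genes such an edgeR p was seen in between 333 of 8282 genes, in mature dendritic cells, and 875 of 8717 genes, in B cells. Counts this small are therefore not read as a result about these 3 genes. The signs of these small values changed between settings, except that of Casp1 in monocytes. Casp4 was at 226 and 259 CPM in cKO CD4 conventional T cells, against 184 and 159 CPM in WT ones (0.51 ± 0.17, edgeR adjusted p = 0.272), where 0.349% of 8601 genes were called.

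Tnf was spread over many classes, whereas Il6 was concentrated in few. Tnf was at 84.2 and 102 CPM in monocytes of cKO tumours, against 88.4 and 53.2 CPM in WT monocytes, and its genotypes overlapped in all 13 classes tested, where 35.7% of gene tests over the classes did not overlap. Its log2 fold change was 0.43 ± 0.21 in monocytes (edgeR adjusted p = 0.945) and 0.18 ± 0.15 in macrophages (adjusted p = 0.990). Il6 was at 63.9 and 104 CPM in monocytes of cKO tumours, against 60.6 and 45.6 CPM in WT monocytes (0.70 ± 0.22, adjusted p = 0.769). Macrophages had 4.44 and 7.90 CPM of Il6 in cKO and 2.44 and 7.67 CPM in WT, which overlapped. Mast cells or basophils had 2058 and 8441 CPM in cKO and 2919.7 and 3687 CPM in WT, so the 2 cKO libraries stood on either side of the WT values (0.74 ± 0.59, adjusted p = 0.805). In neutrophils Il6 had 0 UMIs in both cKO libraries and in WT-2, and 115 UMIs in WT-1, of which 113 came from 1 cell. Without that cell WT-1 had 8.88 CPM in place of 471 CPM.

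Monocytes and macrophages were also divided into subsets, numbered clusters described by their leading genes. A cycling cluster most like macrophages, left without a class, was divided with them, so subsets and classes rest on partly different cells. The 14 subsets with at least 20 cells per library were tested, and differences between subsets were not. There were 5 calls among the members, in 3 subsets, while 0.0258% of all 124219 gene tests in the 14 subsets passed. Il1b had a log2 fold change above 0 in 14 of 14 subsets, and both cKO libraries lay above both WT libraries in 11, beside 14.9% of all gene tests in the subsets. Il1r2 had the same counts, 14 and 11. Il1a was above 0 in 7 of the 12 subsets in which it was tested. The subsets share libraries and are not replicates.

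Subset 0, which had Frmd4b and Mertk among its leading genes and retained Tgfbi, held 3 of the calls. There Il1b was at 4312 and 4393 CPM in cKO, against 2838 and 2484 CPM in WT (log2 fold change 0.73 ± 0.12, edgeR adjusted p = 0.0495). Il1r2 was at 276 and 235 CPM in cKO, against 169 and 121 CPM in WT (0.84 ± 0.14, adjusted p = 0.0495). Il6 was at 13.3 and 9.87 CPM in cKO, against 4.19 and 4.20 CPM in WT (1.48 ± 0.23, adjusted p = 0.0415). All 3 rose, in a subset where 0.135% of 11891 genes were called, and DESeq2 called the same 3 among 27 genes. They were lost without cKO-1 (edgeR adjusted p = 0.185 for Il1b, 0.194 for Il1r2 and 0.227 for Il6) and without cKO-2 (0.278, 0.1504 and 0.0839).

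In subset 1, led by Thbs1, Osm and Ptgs2, Il1a rose, at 138 and 156 CPM in cKO against 71.9 and 64.7 CPM in WT (log2 fold change 1.14 ± 0.13, edgeR adjusted p = 0.0369; 0.0451% of 11087 genes were called). Il1b in that subset was at 4923 and 4783 CPM in cKO, against 3185 and 3265 CPM in WT, and did not pass in edgeR (0.62 ± 0.11, adjusted p = 0.486). DESeq2 called Il1a, Il1b and Il1r2 there, among 14 genes. In subset 11, with non-classical monocyte markers and Cd36 and Fabp4 among its leading genes, Il1b rose, at 3213 and 2498 CPM in cKO against 1431 and 1399.5 CPM in WT. Its log2 fold change of 1.06 ± 0.13 (edgeR adjusted p = 0.0158) was the only call among 7725 genes, 0.0129%, and it held in 8 of 8 other settings. The neutrophil marker sum in subset 11 was 348 and 284 CPM in cKO, overlapping 267 and 298 CPM in WT. Monocyte markers there summed to 6507 and 7494 CPM in cKO, against 7877 and 9177 CPM in WT, and cDC2 markers to 601 and 576 CPM in cKO, against 491 and 544 CPM in WT; the genotypes did not overlap in either sum, and their part in the call was not tested. The ratio of Il1rn to Il1b UMIs there was lower in both cKO libraries, at 0.0115 and 0.00835 in cKO, against 0.0294 and 0.0221 in WT.

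Of the 14 subsets, the interferon-marked subsets 6 and 3 had the highest mean levels of Il6 over the 4 libraries, 166 and 150.3 CPM. In subset 6, led by Ifit genes and Rsad2, Il6 was at 242 and 211 CPM in cKO, against 126 and 85.5 CPM in WT (log2 fold change 1.12 ± 0.18, edgeR adjusted p = 0.360). In subset 3, led by Gbp5, it was at 138 and 245 CPM in cKO, against 109 CPM in both WT libraries (0.87 ± 0.23, adjusted p = 0.9998). In both subsets the genotypes did not overlap, beside 13% of genes with cKO above WT in subset 6 and 12% in subset 3. Neither difference passed in edgeR, which called 0.0199% of 10066 genes in subset 3. DESeq2 called Il6 in subset 6, among 4 genes. At the other end, the macrophage subsets 7 and 12 had low Il1b, at 456 and 514 CPM in cKO against 418 and 486 CPM in WT, and at 256 and 271 CPM in cKO against 241 and 287 CPM in WT. In subset 12 antagonist transcripts outnumbered those of the agonist in 3 of 4 libraries, at 1.35 and 1.197 Il1rn UMIs per Il1b UMI in cKO against 1.13 and 0.913 in WT.

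**Figure D4:**
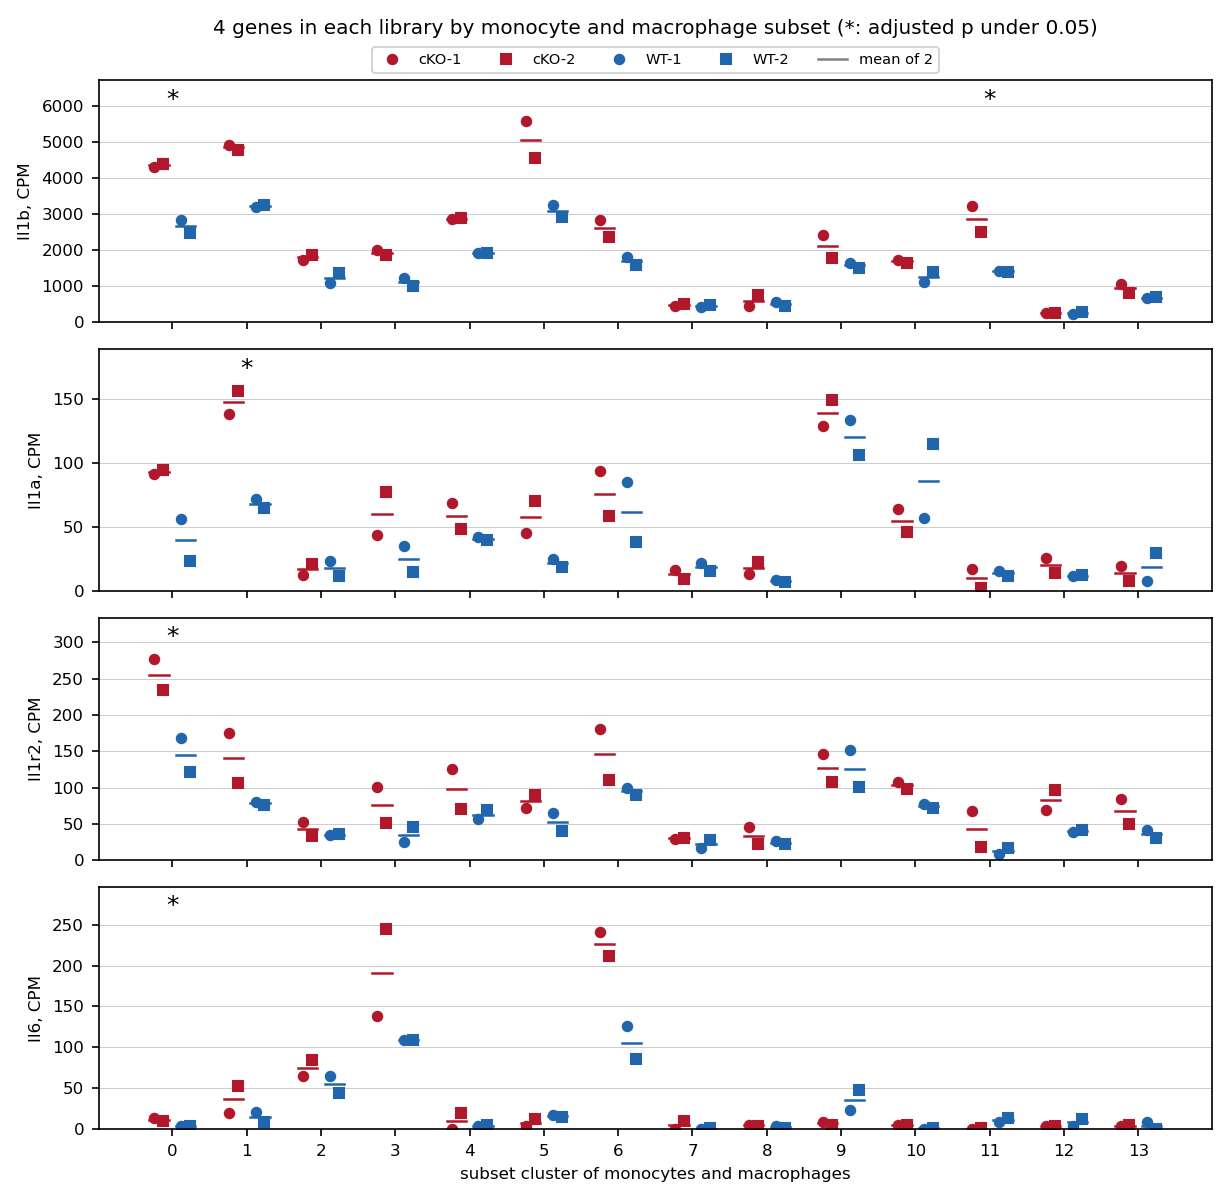
Levels of Il1b, Il1a, Il1r2 and Il6 (rows, CPM) in each library for 14 subsets of monocytes and macrophages; red points are cKO libraries (left), blue points WT libraries (right), lines are means of 2, and an asterisk marks an edgeR adjusted p under 0.05. Il1b is marked in subsets 0 and 11, Il1a in subset 1, and Il1r2 and Il6 in subset 0.

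Plasmacytoid dendritic cells (pDC), known for type I interferon, had lower values of Il1b and Nlrp3 in cKO with mixed droplets set apart. With those droplets kept, the log2 fold changes turned to 0.09 for Il1b and 0.59 for Nlrp3. Il1b was at 36.7 and 112 CPM in cKO pDC, against 184 and 157 CPM in WT pDC (log2 fold change -1.07 ± 0.34, edgeR adjusted p = 0.306). Nlrp3 was at 4.59 and 6.56 CPM in cKO pDC, against 23.0 and 9.71 CPM in WT pDC (-1.39 ± 0.48, adjusted p = 0.369). In 5 of 8 members tested both cKO libraries lay below both WT libraries, beside 22.5% of all genes. By edgeR 0 members were called, against 0.6% of 9674 genes, and 3 had an unadjusted p under 0.05, beside 833 of all genes. DESeq2 called 0 members and 52 genes. Without single libraries Il1b passed: without cKO-2 (-2.18), without WT-1 (-0.97) and without WT-2 (-1.19), and Nlrp3 (-1.93) and Il1r2 (-1.76) passed without WT-2. Macrophage markers in these cells summed to 252 and 240 CPM in cKO, against 530 and 1013 CPM in WT, and their part in the difference was not tested. A single cell held 6.25% and 59.6% of the Il1b UMIs in the cKO libraries, against 38.3% and 54.5% in the WT libraries. Without those cells Il1b was at 34.8 and 45.4 CPM in cKO pDC, against 115 and 72.4 CPM in WT pDC. The full pDC levels overlapped those of lymphocytes, which are read below as background for Il1b. Il1b ran from 117 to 291 CPM in B cells and from 43.6 to 75.5 CPM in CD8 T cells. Nlrp3 ran from 8.63 to 18.5 CPM in B cells and from 3.81 to 7.08 CPM in CD8 T cells. The part of background in the pDC differences was not tested. In mast cells or basophils Il1b was at 2402 and 1461 CPM in cKO and 88.1 and 884 CPM in WT (1.996 ± 0.71, adjusted p = 0.538), but 321 of the 356 UMIs of cKO-1 came from 1 cell, without which that library had 336 CPM. That difference passed without cKO-2 (log2 fold change 2.25) and without WT-2 (4.45). In cDC1 Il1b was at 1531 and 1066 CPM in cKO, against 898 and 394 CPM in WT (1.01 ± 0.31, adjusted p = 0.900), and in mature dendritic cells at 596 and 431 CPM in cKO and 479.7 and 674 CPM in WT.

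Lymphocytes, which should lack Il1b, give its background level in these droplets. Il1b in CD8 T cells was at 71.5 and 75.5 CPM in cKO, against 43.6 and 46.8 CPM in WT, and rose by the test (log2 fold change 0.72 ± 0.13, edgeR adjusted p = 0.0497; 0.088% of 11358 genes were called). It and Il1b in cDC2 were the 2 member calls over the 15 classes, where 0.0887% of 139806 gene tests passed. The call in CD8 T cells was lost without cKO-2 (edgeR adjusted p = 0.229) and in 5 more of the 11 other settings. Monocyte markers in CD8 T cells summed to 1716 and 2118 CPM in cKO, against 1847 and 1966 CPM in WT, and macrophage markers to 1094 and 1035 CPM in cKO, against 953 and 738 CPM in WT; their part in the difference was not tested. As a share of the level in the monocytes and macrophages of the same library, Il1b in CD8 T cells was 2.16% and 2.37% in cKO, against 2.07% and 2.38% in WT, so the genotypes overlapped. For Lyz2, a myeloid transcript that T cells lack, the same share was 4.28% and 3.31% in cKO, against 3.29% and 3.56% in WT. Lyz2 was low among the myeloid genes compared in this way. Their median share in CD8 T cells was 22.3% and 21.1% in cKO, against 23.1% and 17.3% in WT. The lowest was 1.27% and 0% in cKO, against 1.68% and 2.13% in WT, so Il1b lay near the low end. The Il1b share in NK cells was 1.48% and 1.68% in cKO, against 2.08% and 2.15% in WT. In B cells Il1b was at 291 and 177 CPM in cKO and 117 and 170 CPM in WT, and 221 of the 393 UMIs of cKO-1 came from 1 cell. That difference passed without cKO-2 (log2 fold change 1.01) and without WT-2 (1.03), and Il1b in CD4 conventional T cells passed without cKO-1 (0.92). Casp1 and Tnf had higher shares. In CD4 conventional T cells Casp1 was at 113% and 82.9% of the myeloid level in cKO, against 75.6% and 81.5% in WT, and Tnf at 88.1% and 49.8% against 75.4% and 84.5%. Il1r2 in regulatory T cells was at 40.1% and 90.9% of the myeloid level in cKO, against 80.7% and 105% in WT. These shares lay above those of Il1b and Lyz2 in the same classes, but other myeloid genes were higher than Lyz2. In regulatory T cells C1qc was at 46.4% and 35.6% of the myeloid level in cKO, against 37.3% and 41.8% in WT, so Il1r2 lay below it in cKO-1 and above it in the other 3 libraries. The highest myeloid gene there was at 94.3% and 62.8% in cKO, against 210% and 45.6% in WT, above Il1r2 in cKO-1 and WT-1. In CD4 conventional T cells it was at 111% and 453% in cKO, against 89.7% and 284% in WT. That was above Tnf in all 4 libraries and above Casp1 in all but cKO-1. The myeloid level leaves out neutrophils and cDC2, which had higher Il1r2 means, 1502 and 743 CPM. Il1r2 ran from 62.8 to 104 CPM in regulatory T cells, above the 17.7 to 28.4 CPM of CD4 conventional T cells and the 9.66 to 24.5 CPM of CD8 T cells. B cells, at 13.2 to 92.7 CPM, overlapped regulatory T cells.

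**Figure D5:**
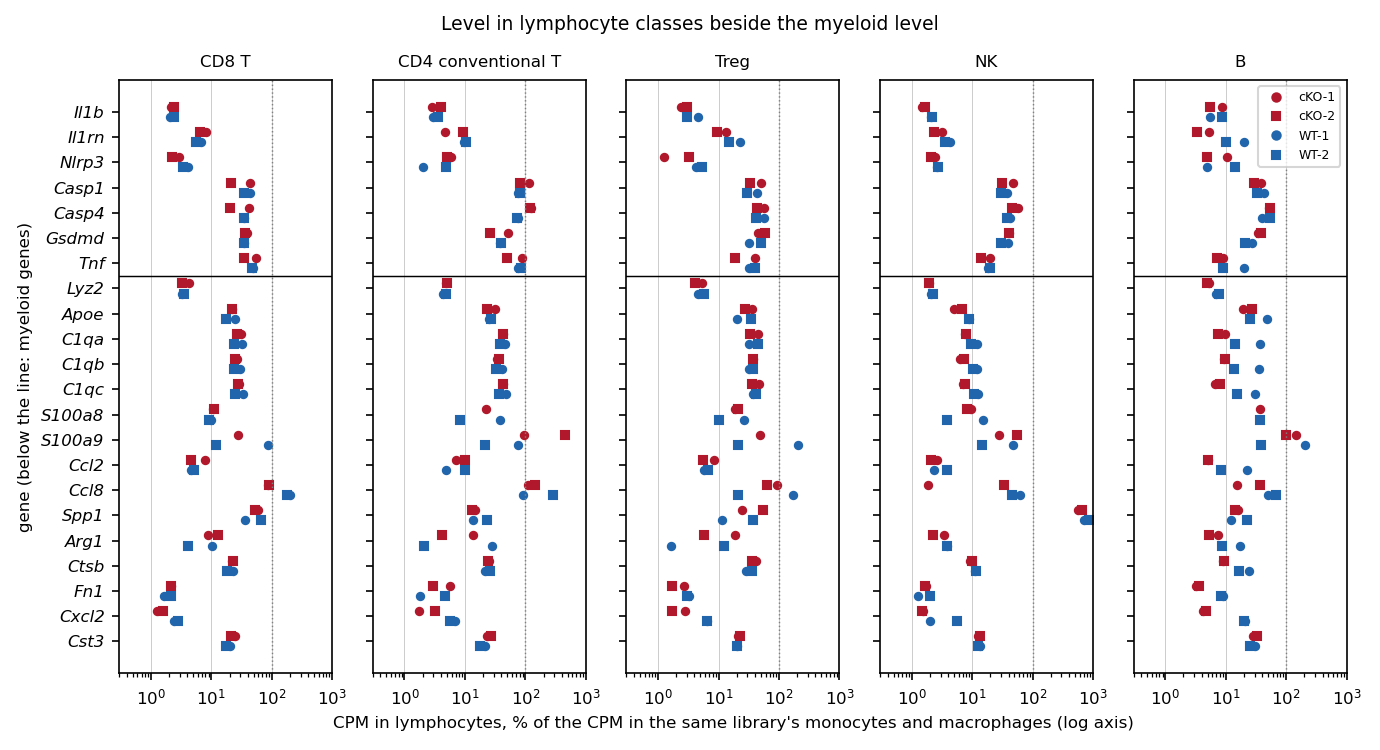
Level of 7 members (above the line) and of myeloid genes such as Lyz2 (below it) in 5 lymphocyte classes, as a percentage of the level in the monocytes and macrophages of the same library, on a log axis; red points are cKO libraries and blue points WT libraries. Il1b in CD8 T cells lies between 2.07% and 2.38% in all 4 libraries, whereas Casp1 in CD4 conventional T cells lies between 75.6% and 113%.

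Over all kept cells Il1b was at 2005 and 1951 CPM in cKO, against 1429 and 1204 CPM in WT, and Il1r2 at 180.0 and 162 CPM against 107 and 92.4 CPM. Neither passed (log2 fold changes 0.58 ± 0.14 and 0.77 ± 0.10, edgeR adjusted p = 0.816 for both), and in these sums fewer cells of a type and less RNA per cell cannot be told apart. Il1a made the 3 of 10 members with cKO above WT, beside 18.7% of 17870 genes. By edgeR 0 members and 0% of genes were called, and 3 members had an unadjusted p under 0.05, beside 992 of 17870 genes. DESeq2 called Il1r2 and Il1b, among 78 genes. Casp1 lay the other way, at 81.8 and 84.5 CPM in cKO against 90.02 and 86.6 CPM in WT. Il1rn, Nlrp3, Tnf, Il6, Casp4 and Gsdmd overlapped between genotypes.

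Among 8 lists of related genes, 1 gene was called in monocytes, macrophages or neutrophils: Cxcl3, a neutrophil-attracting chemokine, rose in monocytes. It was at 4.11 and 5.74 CPM in monocytes of cKO tumours, against 0.502 and 0.308 CPM in WT monocytes, from 85 and 166 UMIs against 17 and 11 (log2 fold change 3.64 ± 0.34, edgeR adjusted p = 0.0475). The call was lost with DESeq2's size factors (adjusted p = 0.0510) and kept without each library in turn. The lists were chosen with earlier results of these data known, so their counts are descriptions and not independent support. Inflammatory NF-kappaB targets had 15 of 16 tested genes above 0 in monocytes, beside 49.9% of all genes. In edgeR 10 of them had an unadjusted p under 0.05, beside 758 of 13977 genes. Their median was 0.52, beside -0.00038 over all genes. In macrophages 14 of 16 were above 0, beside 51.2% of all genes, with a median of 0.31. Yet Cxcl3 there was at 3.997 and 6.05 CPM in cKO against 16.6 and 15.3 CPM in WT (-1.66 ± 0.20, edgeR adjusted p = 0.0651). NF-kappaB subunits and inhibitors had 16 of 17 above 0 in monocytes, with a median of 0.15. Inflammasome sensors and assembly genes had 4 of 14 above 0 in monocytes (median -0.10), and other caspases and gasdermins 4 of 10 (median -0.06). Ligands of the family numbered 2 of 4 above 0, receptors 4 of 6, Toll-like receptor signalling 11 of 19, and TNF and interleukin-6 receptors 9 of 14, with 0 called in each by edgeR. DESeq2 called 1 gene of the Toll-like receptor list and 2 of the inflammatory targets in monocytes, where it called 46 genes in all. Cd14, the lipopolysaccharide co-receptor, came nearest in its list, at 383 and 330 CPM in monocytes of cKO tumours against 214 and 195 CPM in WT monocytes (0.84 ± 0.11, adjusted p = 0.214). In neutrophils Acod1, which makes itaconate, was at 3865 and 5062 CPM in cKO against 2671 and 2379 CPM in WT (0.88 ± 0.25, adjusted p = 0.272).

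Across 60 sums of 15 classes in 4 libraries, the genes whose log2 levels ran most like Il1b were Mcl1 (Pearson r = 0.94), Ccr1 (0.93), Nfe2l2 (0.92), Spi1 (0.92) and Atf3 (0.91). For Il1rn they were Ets2 (0.93), Lst1 (0.92), Msrb1 (0.91), Slc11a1 (0.91) and Clec4d (0.90), and for Nlrp3 they included Emilin2 (0.94), Ptgs2 (0.92), Ccr1 (0.92) and Cd300lb (0.91). The sums share libraries, and classes of the same library share depth.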

How the data were processed

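Per the labels' protocols, CD45-positive cells from MC38 tumours were sorted and loaded on Chromium 3′ v3 chips. The deposited values are raw UMI counts per gene and cell barcode; Cell Ranger, STAR and the mm10 build are named in the submitters' processing notes, whose versions no source used here states. All barcodes in the files already had 500 UMIs or more. Kept cells had 300 or more genes, 500 or more UMIs and no more than 15% mitochondrial UMIs. Scrublet's automatic call marked 0 cells in all 4 libraries and had not worked, so single cells scoring over 0.2 and whole clusters whose median score was over 0.1 were set apart as mixed droplets (5.67% and 6.94% of cKO cells, 4.66% and 6.49% of WT cells). Clusters without a named class held 10.3% and 5.43% of cKO cells, against 11.2% and 8.68% of WT cells. Clustering used scanpy 1.11.5 with 2000 variable genes, 30 principal components, 15 neighbours and Leiden resolution 1, leaving out the 10 genes, the list genes, Trim25, Vsir and Cd4. Classes were named from marker genes and tested with at least 20 cells per library.

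UMIs were summed per library and class, and CPM is per 1000000 UMIs of that sum. Tests used edgeR 4.0.16 (R 4.3.3) with filterByExpr, TMM scaling and quasi-likelihood fits of genotype, adjusted by Benjamini-Hochberg over all genes tested, with a threshold of 0.05; errors of fold changes are standard errors. DESeq2 1.42.0, its size factors, no low-count filter, leaving out each library, a replicate block, mixed droplets kept, Leiden resolution 2 and at most 10% mitochondrial UMIs were alternatives. Interactions were fitted with library as a term. The fits were tested on simulated counts. Named genes were the 10 members in every class, list genes that passed in monocytes, macrophages or neutrophils or came nearest, and the 5 genes most like Il1b, Il1rn and Nlrp3 among genes with at least 20 CPM in a class; not every gene this rule names is reported here. The members, lists and markers were chosen with earlier results of these data known. Of the feature IDs, 32158 matched GENCODE vM21. Lists and markers are described by counts and medians, without a set test.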

Additional observations from a re-analysis of the deposited data

Results flagged for a closer look

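In 3 results the genotype difference was not the same in 2 classes by a test of the difference itself, edgeR's interaction of genotype and class adjusted over all genes. Il1b differed between monocytes, where cKO was higher (log2 fold change 0.79), and plasmacytoid dendritic cells, where cKO was lower (-1.07), by 1.86 ± 0.32 (adjusted p = 0.0193). Nlrp3 differed between the same classes by 2.003 ± 0.32 (adjusted p = 0.0141), with 0.61 in monocytes and -1.39 in plasmacytoid dendritic cells. In that comparison, added after the data were seen, 0.885% of 13214 genes passed. Il1b ran from 36.7 to 184 CPM in plasmacytoid dendritic cells, overlapping the 117 to 291 CPM of B cells, read above as background. Nlrp3 ran from 4.59 to 23.0 CPM there, overlapping the 8.63 to 18.5 CPM of B cells. The part of background in these results was not tested. As given above, a single cell held a large part of the Il1b UMIs of this class in cKO-2, WT-1 and WT-2. Macrophage markers in plasmacytoid dendritic cells summed to 252 and 240 CPM in cKO, against 530 and 1013 CPM in WT, and their part was not tested. With mixed droplets kept, the fold changes in plasmacytoid dendritic cells were 0.09 for Il1b and 0.59 for Nlrp3.

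Il6 differed between monocytes and neutrophils by 14.27 ± 1.74 (adjusted p = 1.42e-12), where 0.217% of 12446 genes passed. That value rests on 1 neutrophil of WT-1, which held 113 of the 115 Il6 UMIs of its class, while both cKO libraries and WT-2 had 0. A fitted difference against sums of 0 is not a measured size.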

How the results depend on the processing

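Over the classes 2 member calls were made. DESeq2 gave 6, its size factors 1, no low-count filter 20, the replicate block 4, mixed droplets kept 1 and at most 10% mitochondrial UMIs 1, which was neither of the 2; leaving out single libraries gave 9 to 16, and a crossed replicate block in monocytes, added after seeing the data, 6. Over the subsets 5 calls became 13 with DESeq2, 27 without the filter, 8 with the replicate block and 7 to 26 without single libraries, and the crossed block in subset 1 gave 3. Over all kept cells 0 became 2 with DESeq2. The 1 list gene called became 0 with DESeq2's size factors, 6 with DESeq2, 18 without the filter, 2 at resolution 2, 3 with at most 10% mitochondrial UMIs and 6 to 27 without single libraries. The shares of all genes called in these other settings are not given beside these counts, so the counts do not single out the members. The cause was not tested. Replicate numbers did not pair the libraries (correlation of deviations -0.14 in monocytes); with the block Il1r2 in cDC2 and Il1rn in neutrophils passed (adjusted p = 0.00241 and 0.032) and Il1a in subset 1 did not (0.161). Of 777 fold changes under other settings, 667 kept their direction and side of the threshold, 59 passed it, 14 lost it and 37 changed sign; the members in which leaving out 1 library changed the sign follow, with the lowest and highest log2 fold change. In monocytes these were Casp4 (-0.065 to 0.13), Gsdmd (-0.043 to 0.058). In macrophages these were Casp1 (-0.019 to 0.078), Casp4 (-0.12 to 0.10), Gsdmd (-0.11 to 0.0058), Tnf (-0.048 to 0.45), Il6 (-0.33 to 1.36). In neutrophils these were Nlrp3 (-0.033 to 0.48), Casp4 (-0.11 to 0.66), Gsdmd (-0.039 to 0.63), Tnf (-0.32 to 0.31). In cDC2 these were Il1a (-0.60 to 0.61), Gsdmd (-0.21 to 0.13), Tnf (-0.089 to 0.40). In pDC these were Il1r2 (-1.76 to 0.18), Gsdmd (-0.33 to 0.15). In all kept cells these were Il1rn (-0.14 to 0.46), Tnf (-0.14 to 0.56), Il6 (-0.44 to 0.83). In mature dendritic cells these were Il1b (-0.43 to 0.088). In regulatory T cells these were Il1b (-0.13 to 0.56). With at most 10% mitochondrial UMIs the sign also changed for Gsdmd in monocytes (-0.021), Casp1 (-0.026), Casp4 (0.038) and Il6 (-0.19) in macrophages and Tnf in neutrophils (0.27). At resolution 2 it changed for Gsdmd in monocytes (-0.0017) and Casp1 in macrophages (-0.017), and with mixed droplets kept for Il1b (0.090) and Nlrp3 (0.59) in pDC. Of 360 levels, 68 moved by more than 1 SD of the libraries, and 43 of 48 shares of cells moved without thinning. Depth limits the neutrophil and mast cell or basophil classes, where few cells carry the sums.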

Other observations

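CD4 conventional T cells held 3 calls in the wider lists. Il1rl1, the receptor for interleukin-33, was at 33.8 and 56.4 CPM in cKO, against 12.6 and 19.9 CPM in WT (log2 fold change 1.43 ± 0.32, edgeR adjusted p = 0.0386). Ccl3, a chemokine of activated lymphocytes and myeloid cells, was at 56.0 and 102 CPM in cKO, against 19.6 and 27.1 CPM in WT (1.73 ± 0.29, adjusted p = 0.00124). Ptgs2, the inducible cyclooxygenase, was at 31.1 and 15.2 CPM in cKO, against 4.20 and 7.19 CPM in WT (2.01 ± 0.45, adjusted p = 0.0386). All 3 rose, among 0.349% of 8601 genes called in these cells, from at most 94 UMIs per library. DESeq2 called Ccl3 (adjusted p = 0.0112) but neither Il1rl1 (0.694) nor Ptgs2 (0.840). Macrophage markers in these cells summed to 1512 and 1372 CPM in cKO, against 1203 and 1089.8 CPM in WT, without overlap, and their part in the calls was not tested. Ccl3 passed without each library in turn. Il1rl1 was lost without cKO-2 (adjusted p = 0.339) and without WT-1 (0.0693), and Ptgs2 without cKO-1 (0.599) and without WT-1 (0.0693).

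Myeloid subsets also held calls in chemokine and co-receptor genes. Cxcl2 rose in subset 1, at 543 and 497 CPM in cKO against 260 and 253 CPM in WT (1.05 ± 0.11, edgeR adjusted p = 0.0317). Cd14 rose in subset 3, at 309 and 319 CPM in cKO against 150 and 129 CPM in WT (1.21 ± 0.14, adjusted p = 0.0155; 0.0620 without cKO-2), and Ptgs2 in the same subset, at 410.1 and 310 CPM against 108 and 97.1 CPM (1.85 ± 0.16, adjusted p = 0.00150). Neutrophil markers in subset 3 summed to 756 and 739 CPM in cKO, against 682 and 556 CPM in WT, and monocyte markers to 16986 and 17223 CPM in cKO, against 17418 and 18994 CPM in WT; neither sum overlapped, and their part was not tested. The signalling receptor gene Il1r1 was at 854 and 709 CPM in cKO gamma-delta T cells, against 515 and 547 CPM in WT gamma-delta T cells. This was not a call: of the 4 receptor genes tested in that class, edgeR and DESeq2 called 0. Gamma-delta T cells numbered 91 and 132 in cKO, against 37 and 70 in WT. The genes under this heading fall outside the rule for named genes and were chosen after their values were seen.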
